A study of Drosophila melanogaster with 2 samples.

Results

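The Mef2 locus was examined for binding of the homeodomain protein lms in Drosophila melanogaster embryos. Mef2 (FBgn0011656) lies on the minus strand of 2R from 9913496 to 9958858 (dm6, counted from 1), and the window studied was the gene with 20 kb on either side, 85.4 kb in all. Members are all peak summits, the single positions at which the authors placed each peak, that fell in this window in any of the 4 deposited lists. Of the 7521 summits kept by the irreproducible discovery rate (IDR) step, 13 were there. The pooled list, called on both replicates together, had 30 of 30000, replicate 1 had 29 of 30000 and replicate 2 had 31 of 30000.

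The assay was ChIP-seq with an antibody against GFP, on whole embryos of a transgenic line that stably expresses lms (CG13424) with GFP at its C-terminus. Embryos of both sexes were pooled and were aged 6 to 18 hours by their source name, although their age label states other hours. There was 1 group with 2 biological replicates and no second condition, so values of the replicates are given side by side. Both replicates come from the same transgenic line, and samples of an untagged line were not analysed here. The material was whole embryos, so the cells in which a site was bound were not resolved. The files hold no read depth, and the lists end at 30000 peaks, which limits what can be said of weak sites.

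Mef2 encodes a MADS-box transcription factor that is required for the differentiation of all embryonic muscle lineages and that activates genes of the contractile apparatus. Its own transcription is directed by many separate enhancers spread upstream of and within the gene, which respond in turn to mesodermal factors such as twi and tin, to lmd in fusion-competent myoblasts, and to Mef2 itself. lms is a homeobox gene known from a small set of lateral body wall muscles.

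The gene has 3 annotated start sites. The distal start site, at 9958858, is used by 2 of 11 annotated transcripts. The middle one, 14094 bp further along the gene at 9944764, is used by 1 transcript, Mef2-RG. The proximal one, another 15149 bp along at 9929615, is used by the other 8, and the first coding base of any transcript lies 7952 bp beyond it. Everything between the distal and the proximal start site is therefore intron or 5' UTR of Mef2. The 13 IDR sites are numbered here from 1 to 13 in the direction of Mef2 transcription, so that site 1 is farthest upstream.

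Lms summits were spread over the upstream part of Mef2 and its flanks, and the transcribed part shared by all isoforms held none of the IDR list. In the gene itself there were 7 IDR summits, 5 in introns and 2 in a 5' UTR, with 3 more in the 20 kb upstream and 3 in the 20 kb downstream. No IDR summit in the window lay in a coding exon or a 3' UTR. Distances between neighbouring IDR summits ran from 201 bp to 25.2 kb, with a median of 3925 bp. The signal, the authors' own score for a peak whose scale is not stated, is used only within a list. It ran from 150 at site 4 to 5244 at site 2, with a median of 259 over the 13 sites, against 267 over the whole IDR list, and 6 of the 13 exceeded that list median. The next highest after site 2 was site 8, with 378.

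**Figure D1:**
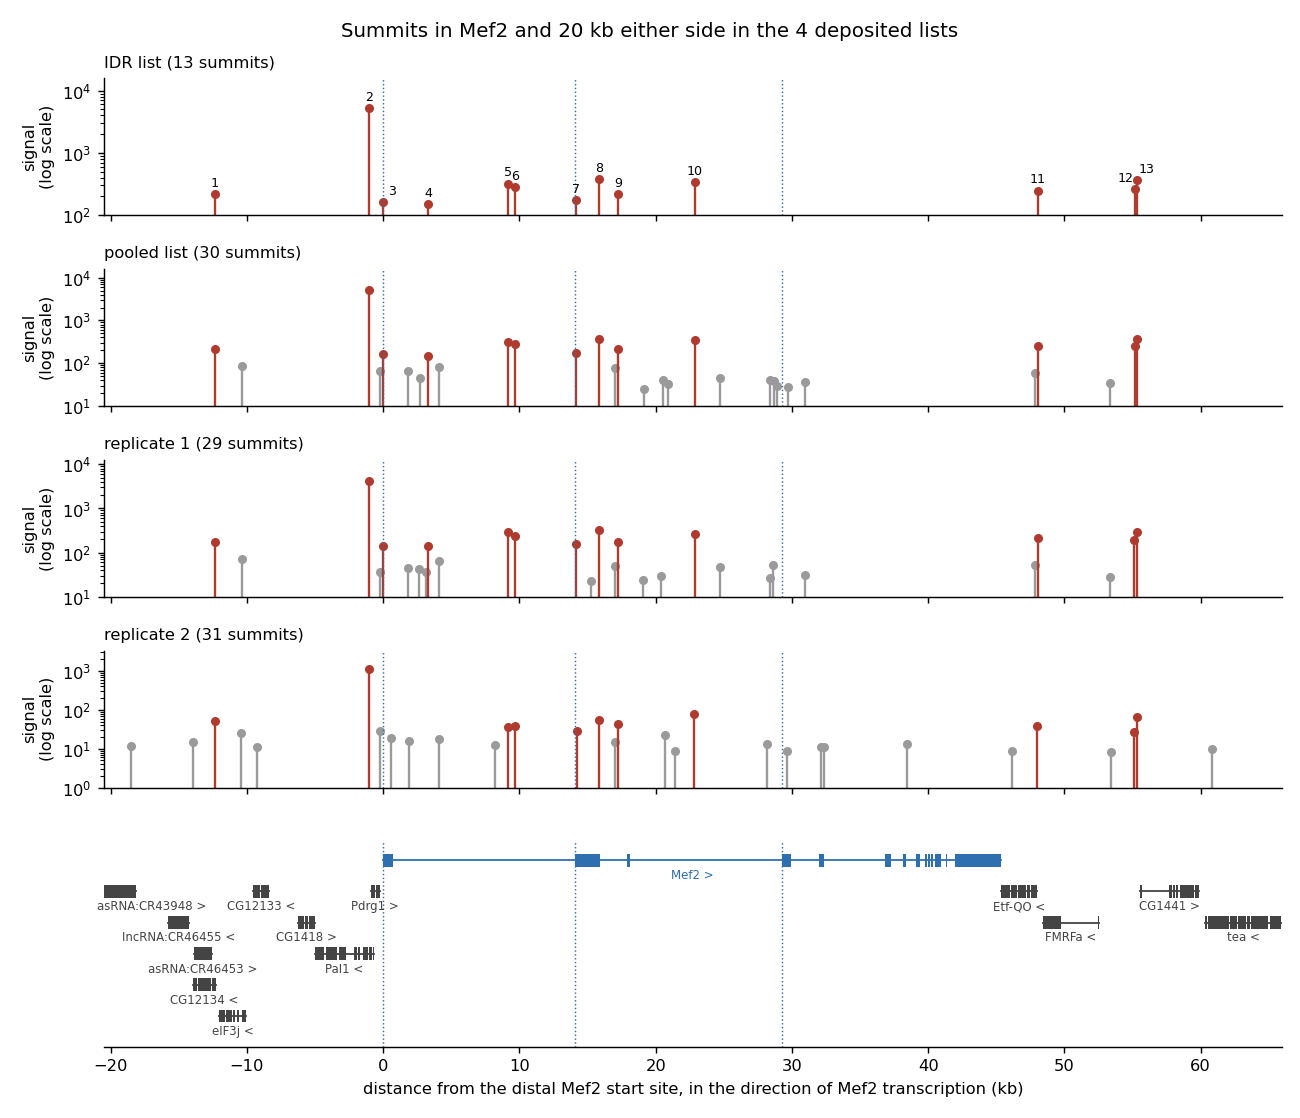
Summits in Mef2 and 20 kb either side, by distance from the distal start site in the direction of transcription (kb), with the signal of each summit on a log axis in each of the 4 lists; red marks IDR sites (in the replicates, summits within 150 bp of one), grey the other summits, dotted lines the 3 Mef2 start sites, and the lowest panel the exons of the annotated genes, with > for genes on the strand of Mef2 and < for the other strand. Site 2, with 5244, stands far above the other sites, and the part of Mef2 beyond the proximal start site has no red summit.

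The highest peak of the window was site 2, just upstream of Mef2 but among the start sites of other genes. Its interval (2R, 9959651 to 9960156) was 506 bp wide, and 4.04% of IDR peaks were at least as wide. Its signal of 5244 ranked 19 in the IDR list. Replicate 1 gave it a signal of 4154 (rank 21) and replicate 2 a signal of 1098 (rank 12), with summits at most 6 bp apart from that of the IDR list. Both replicates thus placed it among their highest peaks.

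The annotation has 4 start sites within 2 kb of this summit. Pal1, which encodes an enzyme of neuropeptide amidation, has a start site for 2 transcripts from which the summit was 163 bp upstream, and another for 1 transcript from which it was 366 bp downstream. Pdrg1, a gene of the prefoldin family on the opposite strand, starts 183 bp from the summit, which was upstream of it. The distal start site of Mef2 was the most distant of the 4, with the summit 1057 bp upstream. The highest peak was therefore nearer to Pal1 and Pdrg1 than to Mef2, and which gene it bears on was not tested.

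The distal start site of Mef2 carried a peak of its own, site 3, with a summit 13 bp upstream of the first base. Its signal of 161 was low for the IDR list (rank 6379). In replicate 1 the summit was 9 bp upstream, with a signal of 144 (rank 5899). Replicate 2 had none within 150 bp of site 3; its nearest summit was 223 bp upstream of the start site, with a signal of 28.4 (rank 6783), and another was 548 bp downstream (rank 10150). Replicate 1 and the pooled list also held a weaker summit 223 bp upstream, with ranks 19299 and 14056. Both replicates thus listed a peak 223 bp upstream of this start site, and replicate 1 alone had the higher one at the start site itself.

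Site 7 lay at the middle start site, 95 bp downstream of its first base and in the 5' UTR of Mef2-RG. Its IDR signal was 174 (rank 5918). Replicate 1 gave 155 (rank 5474), 59 bp downstream of the start, and replicate 2 gave 28.9 (rank 6672), 153 bp downstream. Site 8 lay in the same exon (9942913 to 9944764), 1770 bp beyond that start site, and was the highest of the 7 sites inside Mef2. It had a signal of 378 in the IDR list (rank 2582), 323 in replicate 1 (rank 2454) and 54.3 in replicate 2 (rank 3454). Start site and exon end of Mef2-RG thus each had a peak found in both replicates, that at the exon end being the higher in each list.

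The remaining 5 sites of the gene were in introns. Between the distal and the middle start site, site 4 lay 3322 bp beyond the distal start, and sites 5 and 6 lay 9133 and 9675 bp beyond it, only 542 bp from each other. Site 5 had a signal of 321 (rank 3075) and site 6 a signal of 282 (rank 3556). Replicate 1 gave them 290 and 243 (ranks 2772 and 3392), in a single interval with separate summits, and replicate 2 gave 36.8 and 38.0 (ranks 5225 and 5068). The order of this pair differed between the replicates, so they cannot be ranked against each other.

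Between the middle and the proximal start site, site 9 lay 3141 bp and site 10 lay 8778 bp beyond the middle start. Site 10 had a signal of 341 in the IDR list (rank 2873) and 260 in replicate 1 (rank 3124). In replicate 2 its signal was 77.5 (rank 2339), the highest inside Mef2 in that replicate. Site 9 had 215 (rank 4699), with 170 in replicate 1 (rank 5001) and 42.4 in replicate 2 (rank 4499). The highest site inside Mef2 was thus site 8 in the IDR list and in replicate 1, followed by site 10 and site 5 respectively, and site 10 in replicate 2, followed by site 8.

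Site 4 was the weakest of the 13 and was found in 1 replicate. Its signal was 150 in the IDR list (rank 6837) and 145 in replicate 1 (rank 5880), where its summit was 1 bp away. The nearest summit of replicate 2 was 784 bp away. It was also the highest summit of replicate 1 in the window that had no partner in replicate 2.

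The proximal start site, with most of the annotated transcripts, had no IDR summit within 500 bp. Its nearest IDR summit was site 10, 6371 bp upstream. Weak summits were listed around it: the pooled list had one 345 bp upstream, with a signal of 29.3 (rank 26136). Replicate 1 had one 614 bp upstream with 51.9 (rank 14735), and replicate 2 had one 379 bp downstream with 8.54 (rank 28282). None of these was within 150 bp of a summit of the other replicate. Of the 3 start sites of Mef2, 2 therefore had an IDR summit within 500 bp. Over protein-coding genes 26.4% of start sites had one.

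Summit density changed along the gene. Between the distal and middle start sites there were 3 IDR summits in 14.1 kb (2.13 per 10 kb), and between the middle and proximal start sites 4 in 15.1 kb (2.64 per 10 kb). The 16.1 kb from the proximal start site to the gene's end held 0 IDR summits, and each flank of 20 kb held 3. In the lists of 30000 peaks that last part of the gene held 2 pooled summits, 1 of replicate 1 and 4 of replicate 2, against 12, 11 and 8 between the middle and proximal start sites. The coding span of Mef2, from 9916458 to 9921663, had 0 summits in the pooled list and in replicate 1 and 1 in replicate 2, in an intron (rank 15966). Both replicates had fewer summits beyond the proximal start site than in either segment before it.

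**Figure D2:**
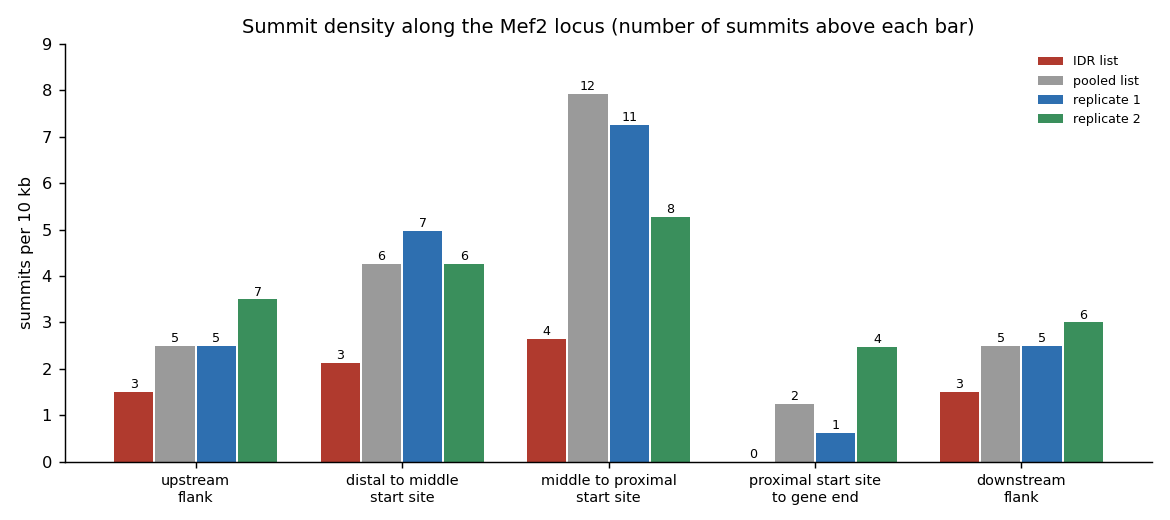
Summits per 10 kb (vertical axis) in 5 consecutive segments of the locus, ordered in the direction of Mef2 transcription, for the 4 lists, with the number of summits above each bar. The segment from the proximal start site to the gene end has 0 IDR summits, and that from the middle to the proximal start site has the highest density in each list.

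The other IDR sites of the window lay at promoters of neighbouring genes. Besides Mef2, 11 genes start in the window, 9 of them protein-coding, and 5 of these 9 had an IDR summit within 500 bp of a start site, against 28.8% of all protein-coding genes. Pal1 and Pdrg1 shared site 2. CG12134 had site 1, 76 bp downstream of its first start site and 139 bp upstream of its second, with a signal of 217 (rank 4666) and with 171 and 50.6 in replicates 1 and 2 (ranks 4957 and 3714). Etf-QO, which encodes an oxidoreductase of mitochondrial electron transfer and ends next to the 3' end of Mef2, had site 11, 73 bp upstream. Site 11 had a signal of 248 (rank 4092), with 210 in replicate 1 (rank 3974) and 38.9 in replicate 2 (rank 4967). CG1441 had sites 12 and 13 upstream, at 427 and 226 bp, with signals of 259 and 362 (ranks 3895 and 2686). Replicate 1 gave them 189 and 290 (ranks 4436 and 2771), and replicate 2 gave 26.3 and 65.5 (ranks 7318 and 2827), so that site 13 was the higher in each list.

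The remaining 4 protein-coding neighbours had no IDR summit within 500 bp. For FMRFa, which encodes neuropeptides, the nearest was 2580 bp away, and for CG1418 and CG12133 it was 5152 and 3988 bp away. eIF3j, a gene of translation initiation, was 2155 bp from the nearest IDR summit, but weaker peaks lay near its start. The pooled list had one with a summit 113 bp downstream, a signal of 87.9 and rank 11090, and the replicates ranked theirs 11324 and 7402. The noncoding genes asRNA:CR46453 and lncRNA:CR46455 were 1533 and 1894 bp from site 1. Farther upstream, the segmentation gene eve starts 461 bp outside the window and was 8100 bp from its nearest IDR summit.

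Of the 13 IDR sites, 11 had a summit within 150 bp in both replicates, against 95.4% of all IDR summits, the exceptions being sites 3 and 4. All 13 had one in replicate 1, with a median offset of 0 bp and a maximum of 36 bp. The 11 found in replicate 2 had a median offset of 23 bp and a maximum of 58 bp. Over the IDR list as a whole the median offsets were 1 and 21 bp. The IDR summits are the highest peaks called on both replicates together, so these matches are not independent of either replicate. With a limit of 300 bp, or by overlapping intervals, 12 of the 13 sites were found in both replicates. The nearest summit of replicate 2 lay 210 bp from site 3 and 784 bp from site 4. When the 7521 highest peaks of each replicate were taken in place of the IDR list, each had 13 summits in the window. All 13 of replicate 1 and 11 of replicate 2 were at IDR sites, and the other 2 of replicate 2 were that upstream of the distal start site and that at eIF3j.

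**Figure D3:**
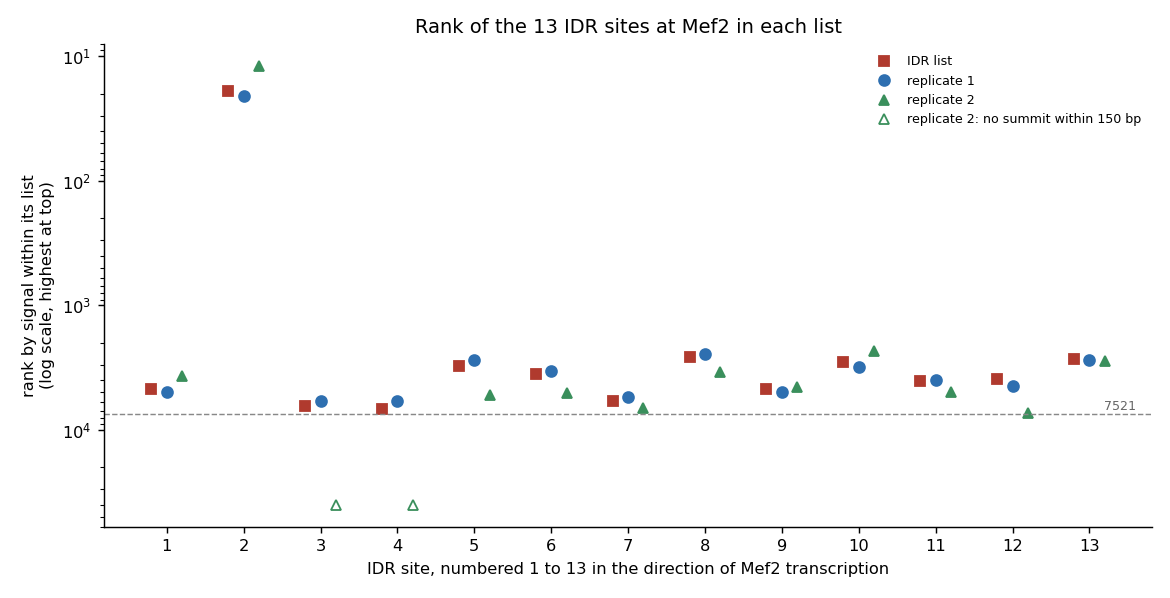
Rank by signal (log axis, highest at the top) of the 13 IDR sites in the IDR list and in each replicate, with open triangles, set at an arbitrary height, for sites that had no summit of replicate 2 within 150 bp, and a dashed line at rank 7521. Site 2 ranks between 12 and 21 in the 3 lists, and the other sites rank between 2339 and 7318 in those lists.

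The ratio of the replicates' signals varied among the sites. Across the 11 sites found in both, the signal of replicate 1 was 3.35 to 7.89 times that of replicate 2, with a median of 5.37. Over all 7176 IDR summits found in both replicates the median ratio was 4.65, with quartiles at 3.75 and 5.87. Site 10 had the lowest ratio, 3.35, and site 5 the highest, 7.89. The lists differ in scale, so these ratios compare sites with each other and not the replicates.

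The pooled list had 17 weaker summits in the window that were not in the IDR list. Of these, 13 were in Mef2. Their signals ran from 24.9 to 87.9, with a median of 41.1. In both replicates 6 of the 17 had a partner within 150 bp, and over all weaker pooled summits this share was 34%. Within 500 bp of a start site of any gene there were 4 of the 17, against 27.5% of all weaker pooled summits. With 17 summits, these counts were near the shares in the whole list.

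Of the 6 weaker summits found in both replicates, 4 were in or just upstream of Mef2. In the intron beyond the distal start site, one lay 4082 bp and another 1848 bp from that start, with pooled signals of 82.2 and 64.7. Another lay 2933 bp beyond the middle start site, near site 9, with 78.4. The last of these was that 223 bp upstream of the distal start site, with 65.2. The other 2 were that at eIF3j and one 764 bp upstream of FMRFa, with a signal of 33.8.

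Many summits were found in 1 replicate only. Replicate 1 had 12 of its 29 summits without a partner within 150 bp in replicate 2 (41.4%), against 50.3% over its whole list. Replicate 2 had 14 of 31 (45.2%) without one in replicate 1, against 50.7%. The highest of the 12 was site 4, and the highest of the 14 was an intron summit 6608 bp beyond the middle start site, with a signal of 22.5 (rank 8509).

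Mef2 had more IDR summits in its window than most protein-coding genes. At least 13 were found for 103 of 13968 genes, Mef2 included (0.737%). The median over all genes was 3, and 86.7% of genes had at least 1. Mef2 is long, and long genes have longer windows. Among the 476 genes whose length was within 1.5 times that of Mef2, 24 (5.04%) had at least 13, with a median of 4 and quartiles at 2 and 7. For the gene body alone, 40 of the 476 (8.40%) had at least the 7 of Mef2. Windows of neighbouring genes share summits, so these are descriptions and no test was made. The highest signal in the window, 5244, was reached by 1.23% of the 12111 genes with an IDR summit in theirs. Of the Mef2 summits 7 of 13 (53.8%) were within 500 bp of a start site of any gene, against 45.9% of all IDR summits and a median of 66.7% over the windows of those genes.

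**Figure D4:**
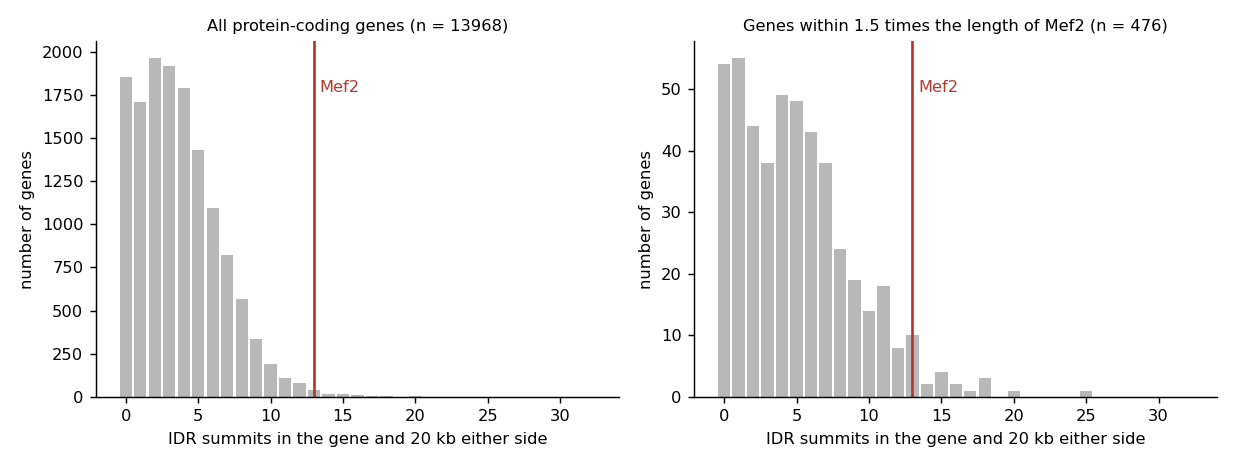
Number of genes (vertical axis) by the number of IDR summits in the gene and 20 kb either side, for all 13968 protein-coding genes (left) and for the 476 of like length, within 1.5 times that of Mef2 (right), with a red line at the 13 summits of Mef2. Mef2 is in the upper tail of both distributions, less far out among genes of like length.

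The genes most like Mef2 in this pattern were CenG1A, MESR3 and larp. Likeness was the distance over the percentiles of gene length, summits in the window, highest signal and share of summits within 500 bp of a start site, among 12090 genes whose windows do not overlap that of Mef2. CenG1A (63.1 kb) had 12 IDR summits in its window and 7 in the gene, with a highest signal of 4110, at a distance of 2.68 percentile points. MESR3 (44.5 kb) had 10, with 2944, at 7.95 points. larp (18.3 kb) had 9, with 3125, at 8.05 points. In replicates 1 and 2 the window of CenG1A held 31 and 22 summits, that of MESR3 30 and 26, and that of larp 22 and 21, against 29 and 31 for Mef2.

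Base composition differed widely among the sites. GC content in 51 bp around the summit had a median of 37.3% over the 13 sites, against 29.4% over all IDR summits, with quartiles of 23.5 and 37.3% in that list. Site 2, the highest peak, had 23.5%, and site 12 had the lowest value, 21.6%. Site 3, at the distal start site, had the highest, 62.7%, a value reached by 0.731% of IDR summits. Site 8 followed with 54.9%, reached by 3.36%. At 7 of the 13 sites GC content was lower than 300 bp away on both sides, against 66.4% of all IDR summits. The 7 were sites 1, 2, 4, 6, 9, 12 and 13.

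**Figure D5:**
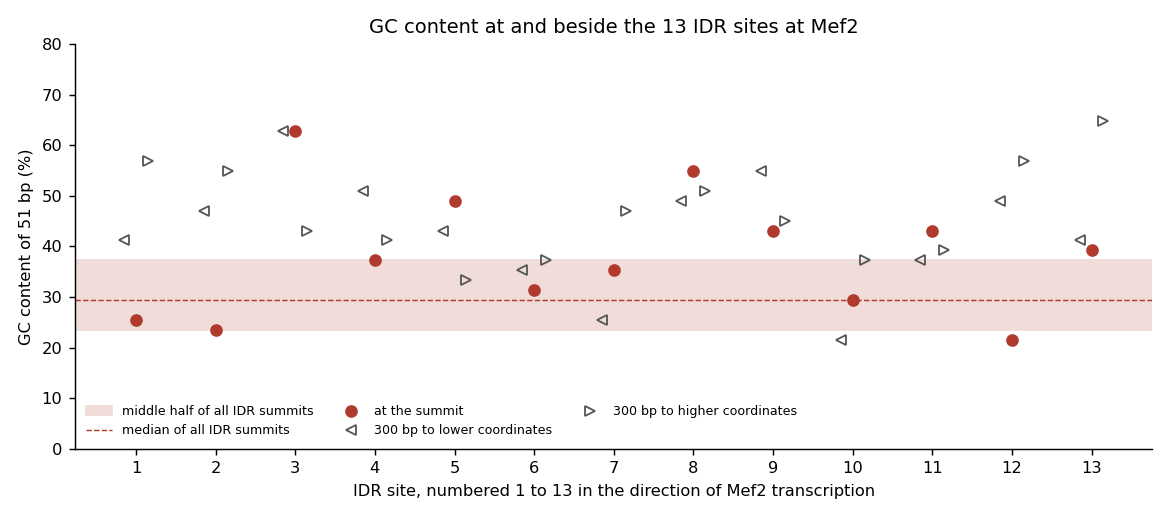
GC content (%) in 51 bp at each of the 13 IDR sites and 300 bp to either side, with the median (dashed) and quartiles (band) of all IDR summits. Sites 3, 5, 8, 9, 11 and 13 lie above the band, sites 3 and 8 being the highest with 62.7 and 54.9%. Site 12 lies below the band, and sites 1, 2, 4, 6, 7 and 10 lie within it.

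Of the 13 sites, 7 held at least 1 of a list of known binding sequences within 50 bp of the summit, and 10 did within 100 bp. The share of all IDR summits with at least 1 of them was not computed, so these counts have no background beside them. Exact matches were counted on both strands within 50 bp of the summit for 10 sequences; GATAA can overlap TATCGATA, and TAATTA can overlap the Mef2-type sequence. TAATTA, the core bound by many homeodomains, was in 0 of 13 windows, against 11.3% of all IDR summits, and also in 0 within 100 bp, against 19.6%. The E-boxes CATATG and CAGCTG, of types bound by twi and by the MyoD homologue nau, were also in 0, against 3.95 and 2.98%. Within 100 bp CATATG was still in 0, against 7.71%, and CAGCTG was in 1, against 7.11%. CACATG, another E-box, was in 1 (site 4, 16.5 bp from the summit to the centre of the match), against 3.27%, and in 2 within 100 bp, against 7.03%. CACTTGA, a site of tin, was in 0, against 1.42%, and in 0 within 100 bp, against 3.35%. The Mef2-type sequence was in 1 window, that of site 1 at CG12134, against 8.34%, and in 1 within 100 bp, against 14.3%. GATAA, the core bound by GATA factors, was in 5, sites 2, 4, 5, 11 and 13, against 26.2%, and at site 2 it was centred 7 bp from the summit. Within 100 bp GATAA was in 6, against 43.6%. With 13 windows each count rests on few sites and was not tested, and an absent match says only that these letters are not in the window.

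Site 3 held GGTCACAC, the core of the promoter element recognised by M1BP, which is known from the start sites of broadly expressed genes. Copies were centred 1.5 and 20.5 bp from the summit, on either side of it. This sequence was in 0.851% of IDR windows, and 2 of 7521 held 2 or more copies. It was in none of the other 12 windows, and within 100 bp the count was still 1 of 13, against 2.25%. The DREF element TATCGATA was in 0 of 13, against 1.58%, and in 0 within 100 bp, against 3.68%, and GAGAG, a core bound by the GAGA factor, was in 1 (site 11), against 8.02%. Within 100 bp of the summit GAGAG was in 4 of 13 windows, against 19.5% of all IDR summits, so its count depends on the width searched. The site with the highest GC content of the 13 was thus also the only one of them with a match to GGTCACAC.

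Genes around Mef2 in the myogenic pathway were counted by IDR summits within the gene or up to 2 kb before it, which 40% of protein-coding genes had. All 7 genes listed as regulators of Mef2 expression had one, but 1 of the 7, tin, had one within 500 bp of its own start site, against 28.8% of protein-coding genes. The highest were at Mad (1536, 664 bp upstream), zfh1 (1441, 1489 bp upstream) and tin (1281, 210 bp upstream). Med followed with 226, at a summit 25 bp from the start site of its neighbour CycG. For others of the 7 the summit was also nearer to another gene's start site, or far from their own. The 1 summit counted for twi lay 17927 bp from its start site and was nearest to that of CG9896, 4417 bp away. That counted for akirin lay 127 bp from the start site of Sh3beta, and that for lmd lay 1998 bp upstream of lmd. These 3 were named after their values were seen, and the count of 7 therefore does not place a summit at each gene's own promoter. Mad and Med are transducers of Dpp signalling, tin is the heart factor of the NK family and zfh1 represses myogenesis. With the highest peaks of replicate 1 or of replicate 2 alone, 6 of the 7 had a summit.

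Of 6 partners and inhibitors of the Mef2 protein 4 had a summit, HDAC4 (601), a deacetylase that represses Mef2, nau (381, nearer to the start site of CG10300), sd (248) and Him (168), while Cf2 and vg had none. Of 17 listed targets 5 had a summit, against 40% of protein-coding genes. The same 5 of the 17 (29.4%) had one within 500 bp of a start site, near the 28.8% of all protein-coding genes. These were Msp300 (2273), which links muscle nuclei to actin, sls (1725), Act87E (751), Tm1 (683) and the integrin gene if (270). The signals are those of the highest summit of each gene. At Msp300 and if this was not a summit within 500 bp, as it lay 630 and 7955 bp from the nearest start site. The other 12, Act57B, Mhc, Mlc1, Mlc2, Tm2, wupA, up, bt, Mlp60A, Mlp84B, betaTub60D and Prm, had none; Prm had one among the highest peaks of replicate 2. The counts for partners were 4 and 4 in replicates 1 and 2, and those for targets 5 and 6.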

How the data were processed

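ChIP-seq peak lists of 2 biological replicates (1 group; replicate numbers from the labels) were used as deposited, on dm6 per the labels. Each replicate, and the 2 pooled, had peaks called against 1 control alignment, from which the IDR list was made, per the deposited notes. The aligner, peak caller and IDR settings are not stated there. Deposited values were a signal score per peak, whose scale was not stated, and a deposited −log10 q-value, which was 4.37 in every IDR peak and was not used. The IDR list equals the 7521 highest pooled peaks.

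Summits were the deposited start plus offset. Start sites and exons came from Ensembl release 115 (transposable elements left out), bases from the release 6 reference. Distances, counts and motif matches were computed with Python 3.11.15, numpy 2.4.6 and pandas 2.3.3, and counting was tested on simulated data. Summits matched within 150 bp. No chance test was made. Members, gene lists and motifs were chosen with earlier results of these data known. Named by rule are Mef2, genes starting in the window and the 3 most similar genes. The rule also took the 4 highest members of each list and those lacking a summit. Outside it, the listed genes twi, lmd, akirin and if were also named. So were eve and the genes whose start sites lay nearest to a listed gene's summit.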

Additional observations from a re-analysis of the deposited data

How the results depend on the processing

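Of 35 alternative values for the 8 main results, 25 were close to the main value (counts within 1.5 times). The 13 IDR summits became 7 in the gene body alone, 6 among IDR peaks of higher signal and 30 in the full pooled list, by construction of narrower or longer sets; leaving out either replicate gave 13 to 13. The share of genes with at least as many summits as Mef2 was 0.322% with flanks of 10 kb, 8.78% with 50 kb, 5.04% among genes of like length, 4.45% among peaks of higher signal, and 0.687 to 0.809% with 1 replicate left out, against 0.737%; the cause was not tested. The rank of the highest summit ran from 12 to 21 with 1 replicate left out. Of the 30 listed pathway genes 16 had a summit in the gene or 2 kb upstream, against 40% of protein-coding genes. Within 500 bp of a start site 8 had one, against 28.8%, and with flanks of 20 kb 28 had one, against 86.7%. With 1 replicate left out the count of 16 became 15 to 16. Summits at start sites of any gene ran from 7 to 8 and at those of Mef2 from 2 to 2 with 1 replicate left out. No paired analysis was possible because there was 1 group. Depth was unknown, and weak sites beyond 30000 peaks were not analysed here.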
